A study of Mus musculus with 10 samples.

Results

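Macrophage identity transcription factors are the DNA-binding proteins that give macrophages, the phagocytes of tissues and tumours, their gene programme. Here 9 of them were followed in RNA of sorted tumour cells: Spi1, Cebpa, Cebpb, Runx1, Irf8, Irf5, Maf, Bhlhe40 and Nr1h3. Each was found by its symbol, in 9 of the 55487 gene rows of the table, and all 9 were among the 13930 genes with a TPM value of at least 1 in at least 5 libraries. TPM is transcript abundance per length, scaled to the same total in each library, so levels of different genes can be set side by side. Depth cannot be read back from it and is unknown, which leaves the counting error of each value unknown as well.

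The series compared tumour-infiltrating cells of mice with an alanine in place of serine in the phosphatase Pep, the product of Ptpn22 (S452A, 5 libraries), and of mice with the wild-type protein (WT, 5 libraries). The design text writes S425A where the sample titles write S452A, and S452A is used here. All mice, 8 weeks old, were given MC38, a colon carcinoma line of the mouse, and the tumours were taken 18 days later, digested with collagenase and sorted for CD8+ T cells. Each library is labelled as a separate mouse, no promoter or Cre driver is named for the allele, and no batch is labelled.

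In the libraries labelled CD8+ T cells, T cell markers were low and macrophage markers high. The 8 T cell markers, among them Cd3e, Trac and Cd8a, summed to 14.96 to 135 TPM in S452A libraries and to 12.1 to 126 TPM in WT libraries, and none of the 8 was at 0 in all libraries. The 14 macrophage markers, among them Csf1r, Adgre1 and C1qa, summed to 18993 to 24596 TPM in S452A libraries and to 18156 to 25168 TPM in WT libraries. Every pair of libraries had a correlation across genes of 0.936 to 0.969, and genes are not independent replicates.

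PU.1, the product of Spi1, opens chromatin at macrophage enhancers, where C/EBP and RUNX proteins bind beside it and fix the lineage. Interferon regulatory factors, MAF proteins and nuclear receptors act on this set of enhancers and tune the state of the cell, among other things its inflammatory, antigen-presenting and lipid-handling genes.

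Promoter entries in RefSeq (GRCm38.p6) were held for 6 of the 9 genes, and 3 of the windows, each the 250 bases before a transcription start, are shown because Irf8 and Runx1 held a searched motif and Irf5, whose level tracked Spi1 most closely, held none. Spi1, Maf and Bhlhe40 are named only. The window of the first Irf8 entry lies at chr8:120736108-120736357 on the plus strand, that of Irf5 at chr6:29526375-29526624 on the plus strand, and that of the second Runx1 entry at chr16:92697330-92697579 on the minus strand. The second Irf8 entry, at chr8:120738389-120738638, held 0 matches and is not shown. Capitals mark matches, on either strand, to the gamma-activated site TTCNNNGAA in Irf8 and to GAGGAA, a form of the ETS core that PU.1 can bind, which in Runx1 is read as TTCCTC.
Irf8: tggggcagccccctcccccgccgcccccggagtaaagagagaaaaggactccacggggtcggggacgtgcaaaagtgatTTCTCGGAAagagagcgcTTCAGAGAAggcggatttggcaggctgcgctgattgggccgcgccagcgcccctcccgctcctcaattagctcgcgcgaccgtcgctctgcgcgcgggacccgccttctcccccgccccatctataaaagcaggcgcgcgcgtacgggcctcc
Irf5: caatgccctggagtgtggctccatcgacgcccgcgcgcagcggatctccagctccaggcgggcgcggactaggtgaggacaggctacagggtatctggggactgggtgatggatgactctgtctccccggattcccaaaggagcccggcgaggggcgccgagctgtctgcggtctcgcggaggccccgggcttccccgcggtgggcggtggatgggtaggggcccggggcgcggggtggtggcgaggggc
Runx1: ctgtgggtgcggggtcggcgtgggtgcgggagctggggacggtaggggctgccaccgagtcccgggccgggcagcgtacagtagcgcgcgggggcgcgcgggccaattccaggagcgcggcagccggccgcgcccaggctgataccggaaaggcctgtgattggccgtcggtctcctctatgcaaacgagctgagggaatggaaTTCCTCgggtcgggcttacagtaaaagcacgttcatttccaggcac
Counted from the start, with -1 the base before it, the matches in Irf8 began at -171 and -153 and that in Runx1 at -46. The gamma-activated site was present in 7.04% of 32536 RefSeq promoter windows of this length and GAGGAA in 23.4%. The other motifs searched on both strands, with the share of windows that held each, were the ETS-IRF composite element (2.31%), the IRF element (2.98%), the C/EBP element TTGCNNAA (9.57%), the RUNX element TGTGGT (4543 of the windows), the E-box CACGTG (6.04%), the cAMP response element TGACGTCA (1.56%), the LXR DR4 element (0.0154%) and the MAF recognition element (0.00615%). Of these, the E-box was found once, in the first Runx1 entry, and the matches did not overlap. A match is a description of the letters and not of binding.

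By annotation (GRCm38), Spi1 lies on chromosome 2 at 91082390 to 91115756 and Nr1h3 on the same chromosome at 91184061 to 91202834, so the pair is separated by 68.3 kb. Maf and Irf8 are on chromosome 8, 5.03 Mb apart. Exons of Cebpb overlap those of Tmem189 on the opposite strand (128 TPM on average over the libraries), and exons of Irf5 overlap those of Tnpo3 (32.4 TPM). The kit marked strand, but whether counting used it is not given in the sources used here, so the levels of Cebpb and Irf5 carry that uncertainty.

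All 9 factors were expressed in every library, and Cebpb was the highest. Averaged over the 10 libraries, the order was Cebpb, Spi1, Bhlhe40, Cebpa, Irf5, Irf8, Nr1h3, Runx1 and Maf. Cebpb stood at the 97.9th to 98.5th percentile of the tested genes in each library, Spi1 at the 95.1st to 96.4th, and Maf at the 64.0th to 72.1st. Cebpb exceeded Spi1, Spi1 exceeded Bhlhe40, Bhlhe40 exceeded Cebpa and Irf8 exceeded Nr1h3 in 10 of 10 libraries (paired permutation p = 0.002 and Benjamini-Hochberg adjusted p = 0.004 for each of these neighbours, over 8 neighbours). Runx1 exceeded Maf in 9 of 10 (adjusted permutation p = 0.0094). The order was not clear for Cebpa against Irf5 (7 of 10 libraries, adjusted permutation p = 0.0521), Irf5 against Irf8 (6 of 10, 0.192) and Nr1h3 against Runx1 (6 of 10, 0.7637).

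**Figure D1:**
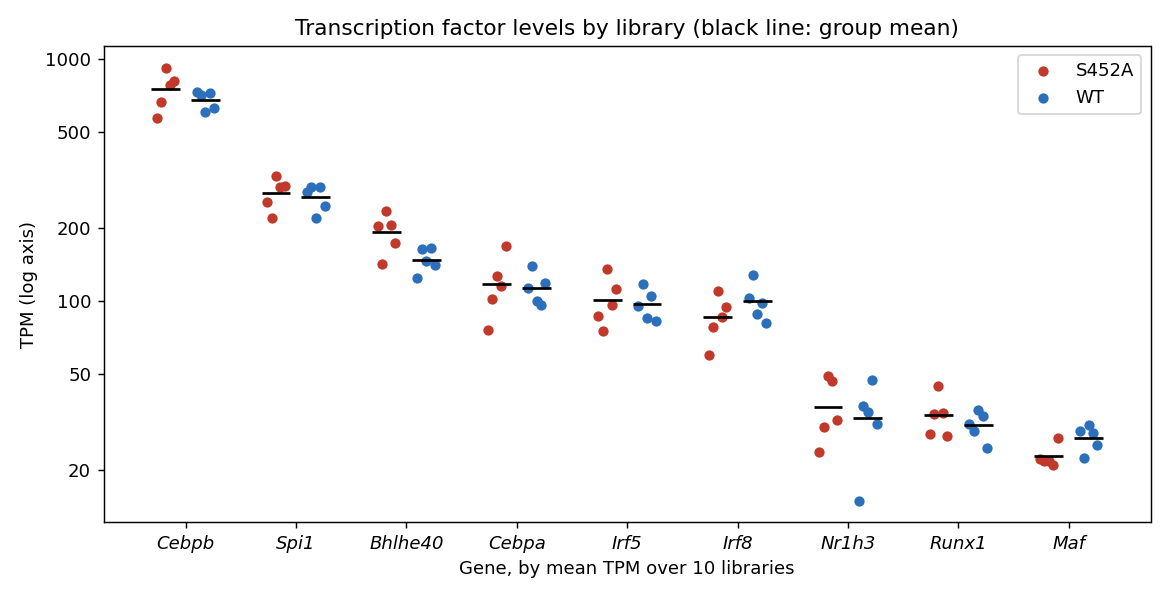
Levels of the 9 transcription factors in TPM on a log axis, one point per library, S452A in red and WT in blue, with the group mean as a black line. The groups overlap for each gene, from Cebpb at 569.6 to 922 TPM in S452A libraries to Maf at 21.0 to 27.1 TPM in S452A libraries.

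The lineage factors Spi1, Cebpa, Cebpb and Runx1 had 0 genes that passed the test between S452A and WT libraries. Spi1, which encodes PU.1, had 257, 219.7, 328, 295 and 299 TPM in S452A libraries 1 to 5, and 282, 296, 220.2, 296 and 248 TPM in WT libraries 1 to 5. S452A 3 was the highest and S452A 2 the lowest, and the groups overlapped. Its difference, S452A minus WT on the log2(TPM + 1) scale, was 0.06 with a standard error (SE) of 0.13 (95% interval -0.22 to 0.33, limma adjusted p = 0.9736 over all genes tested). In bulk RNA, fewer cells of a type and less RNA per cell cannot be told apart.

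Cebpa, C/EBPα, is needed for myeloid progenitors in the mouse. It had 75.7, 102, 127, 116 and 168 TPM in S452A libraries, and 114, 139, 99.8, 96.45 and 119 TPM in WT libraries. The lowest and the highest library were both S452A (1 and 5), so S452A spanned the WT values. Its difference was 0.02 (SE 0.18, interval -0.39 to 0.42, limma adjusted p = 0.9976).

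Cebpb, C/EBPβ, acts in monocyte and macrophage activation. It had 569.6, 663, 922, 779 and 809.7 TPM in S452A libraries, and 729, 707, 602, 726 and 627 TPM in WT libraries. S452A 3 was the highest and S452A 1 the lowest, and the WT values lay within the S452A range. Its difference was 0.13 (SE 0.13, interval -0.15 to 0.41, limma adjusted p = 0.955). It was 0.05 without S452A 3 and 0.22 without S452A 1.

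Runx1, a core-binding factor required for blood cell formation, had 28.2, 34.0, 44.4, 34.5 and 27.8 TPM in S452A libraries, and 31.1, 29.1, 35.3, 33.65 and 24.7 TPM in WT libraries. S452A 3 was again the highest and WT 5 the lowest. Its difference was 0.12 (SE 0.15, interval -0.20 to 0.44, limma adjusted p = 0.9582). It was 0.02 without S452A 3, 0.05 without WT 5 and 0.18 without S452A 5.

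The interferon regulatory factors Irf8 and Irf5 stood close to each other in level, and neither passed the test. Irf8, which directs monocyte and type 1 dendritic cell development, had 59.7, 77.9, 110.0, 85.8 and 94.3 TPM in S452A libraries, and 103, 128, 88.5, 98.1 and 81.3 TPM in WT libraries. S452A 1 was the lowest and WT 2 the highest, and 1 of 5 S452A libraries lay above the WT median. Its difference was -0.23 (SE 0.17, interval -0.59 to 0.13, limma adjusted p = 0.9523). It was -0.11 without S452A 1 and -0.14 without WT 2.

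Irf5, which acts downstream of Toll-like receptors on inflammatory cytokine genes, had 87.1, 74.9, 136, 96.1 and 112 TPM in S452A libraries, and 95.1, 118, 85.0, 105 and 82.4 TPM in WT libraries. S452A 3 was the highest and S452A 2 the lowest, as for Spi1. Its difference was 0.04 (SE 0.16, interval -0.31 to 0.39, limma adjusted p = 0.9869).

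Maf and Bhlhe40 had the largest absolute differences of the 9, in opposite directions, and neither passed the adjusted test. Maf, the large MAF protein c-MAF, which acts on Il10 and C1q genes, had 22.3, 21.7, 21.8, 21.0 and 27.1 TPM in S452A libraries, and 29.0, 22.5, 30.8, 28.6 and 25.4 TPM in WT libraries. Of the S452A libraries 4 lay at 21.0 to 22.3 TPM, below each WT library, and S452A 5 lay within the WT range. Its difference was -0.25 (SE 0.12, interval -0.51 to 0.02, limma unadjusted p = 0.06633 and adjusted p = 0.9523, exact permutation p = 0.04762). None of the 5 S452A libraries lay above the WT median.

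Bhlhe40, a basic helix-loop-helix repressor that limits Il10 in mouse myeloid and T cells, had 204, 142, 235, 207 and 173 TPM in S452A libraries, and 124, 164, 146, 166 and 141 TPM in WT libraries. The S452A libraries 1, 3, 4 and 5 were above all WT libraries, and S452A 2 was below 3 of them. Its difference was 0.36 (SE 0.14, interval 0.06 to 0.66, limma unadjusted p = 0.02298 and adjusted p = 0.9523, exact permutation p = 0.03968), or 1.28-fold. It was the 1 member of 9 with an unadjusted p under 0.05, where 4.74% of all tested genes had one.

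The lipid-responsive nuclear receptor Nr1h3 (LXRα), which oxysterols activate, varied most. It had 23.7, 30.3, 49.1, 46.95 and 32.3 TPM in S452A libraries, and 14.98, 36.9, 34.8, 47.0 and 31.1 TPM in WT libraries. WT 1 was the lowest and S452A 3 the highest, with a ratio of 3.28 between them. Its difference was 0.18 (SE 0.28, interval -0.43 to 0.79, limma adjusted p = 0.9616). Without WT 1 it was -0.07. Its spread within genotypes was at the 94.0th percentile of genes averaging at least 10 TPM, against the 16.0th for Maf.

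Counted together, 0 of 9 factors were called between S452A and WT at limma adjusted p under 0.05, where 0.00718% of tested genes (1 of 13930) were called. By limma 1 of the 9 had an unadjusted p under 0.05, and by the exact permutation test 2 had, Bhlhe40 and Maf, where 4.46% of tested genes had one by that test. None of the 9 had groups that did not overlap in TPM, where 0.646% of tested genes had. The difference was above 0 for 7 and below 0 for 2, with a median of 0.06 on the log2 scale, beside 46.6% of all tested genes above 0 and a median of -0.02. The 95% interval of each of the 9 lay within a 2-fold change in either direction on the log2(TPM + 1) scale. The direction of Spi1, Cebpa, Irf5 and Nr1h3 changed on leaving out 1 library. Spi1 turned to -0.01 without S452A 3 or WT 3. Cebpa turned to -0.12 without S452A 5, -0.02 without S452A 3, -0.03 without WT 3 and -0.04 without WT 4. Irf5 turned to -0.072 without S452A 3, -0.002 without S452A 5, -0.003 without WT 3 and -0.014 without WT 5. The fibroblast markers, a measure of other cells, summed to 72.5 to 221 TPM in S452A libraries and to 161 to 316 TPM in WT libraries, with 6 of 6 lower and 0 called. By limma 2 of the 6 had an unadjusted p under 0.05, where 4.74% of tested genes had one. The differences of the 6 markers ran from -0.76 to -0.20, with a median of -0.62. Bhlhe40 had r = -0.632 with the mean of these markers over the 10 libraries (permutation p = 0.0446, adjusted p = 0.345 over 36 relations, rho -0.527 with permutation p = 0.122), and -0.314 without S452A 3 and WT 3. Maf had r = 0.559 (permutation p = 0.0852, adjusted p = 0.384, rho 0.661 with permutation p = 0.0451), and 0.170 without the same libraries. Both pooled values include the genotype difference. Centred within genotype, r with these markers was -0.393 for Bhlhe40 (exact permutation p = 0.337) and 0.271 for Maf (exact permutation p = 0.472). The part of fibroblast content in the differences of Bhlhe40 and Maf was not tested.

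**Figure D2:**
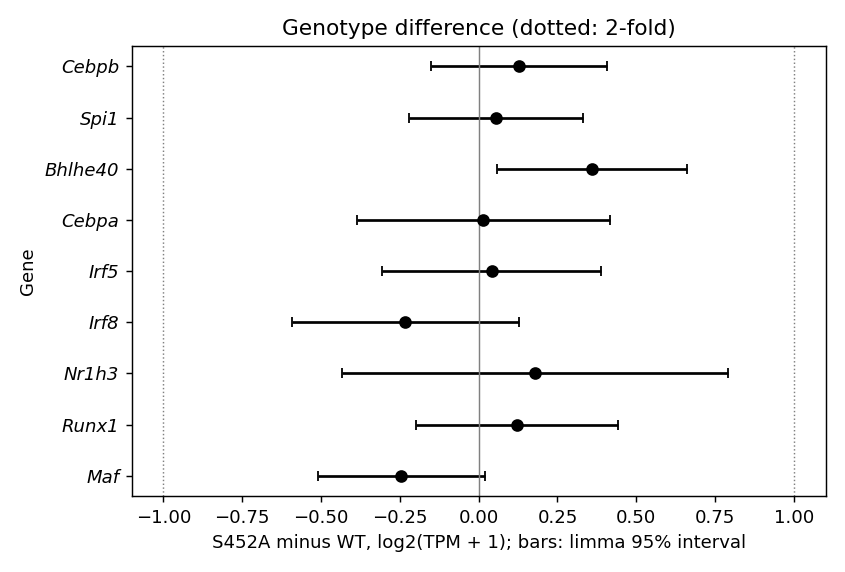
Difference S452A minus WT on the log2(TPM + 1) scale for each of the 9 genes (point) with its limma 95% interval (bar), and dotted lines at a 2-fold change. Bhlhe40, at 0.36, is the gene whose interval lies above 0, and all intervals lie inside the dotted lines.

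High and low libraries were shared by many of the factors. S452A 3 was the highest library for 6 of 9 factors and in the top 3 for 8, and its summed TPM of the 9 was 1973. Of that sum, 922 TPM came from Cebpb alone. S452A 3 also had the fewest genes at 1 TPM or more of the 10 libraries (13677). The share of all tested genes that were highest in S452A 3 was not counted, so these counts are not shown to be particular to the factors. S452A 1 had the lowest sum, 1328, and was the lowest library for 3 factors, and S452A 2 summed to 1365. WT sums ran between 1342 and 1641, inside the S452A range.

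Of 36 pairs of factors, 27 had r above 0 across the 10 libraries, with a median r of 0.43 and a range of -0.59 to 0.90. Over all gene pairs averaging at least 10 TPM (7645 genes), 50.9% were above 0, the median was 0.01, and 16.0% of pairs reached the median of the factors. The points share the scaling of a library and its cell content. The pair of Spi1 and Irf5 was the 1 that passed over the 36 (r = 0.899, permutation p = 0.00046, adjusted p = 0.0166), with Spearman rho 0.976 (permutation p = 3e-05, adjusted p = 0.00108). Centred within genotype r was also 0.899 (exact permutation p = 0.00201, adjusted p = 0.045), and without S452A 2 and WT 3, the libraries farthest in Spi1, r was 0.923. Leaving out S452A 2 or S452A 3 alone gave r of 0.861 (permutation adjusted p = 0.0509) and 0.876 (permutation adjusted p = 0.0834). Of genes averaging at least 10 TPM, 0.275% had an r to Spi1 this high.

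Cebpb was at r = 0.807 with Spi1 (permutation p = 0.00456, adjusted p = 0.0792, rho 0.782 with permutation p = 0.0107) and 0.794 with Irf5 (permutation p = 0.0066, adjusted p = 0.0792, rho 0.721 with permutation p = 0.0236), and neither passed. These became 0.846 and 0.677 without S452A 1 and S452A 3. Of genes averaging at least 10 TPM, 2.12% had an r to Cebpb as high as that of Spi1, and 2.55% as high as that of Irf5. Cebpb with Irf8 was at r = 0.636 (permutation p = 0.0477, adjusted p = 0.245, rho 0.600 with permutation p = 0.0736), and centred within genotype at 0.886 (exact permutation p = 0.0025, adjusted p = 0.045), but at 0.308 without S452A 1 and S452A 3. All 7 pairs with an unadjusted p under 0.05 lay among Cebpb, Spi1, Cebpa, Irf5 and Irf8. No pair with Maf passed (r between -0.592 with Bhlhe40 and 0.158 with Irf8).

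**Figure D3:**
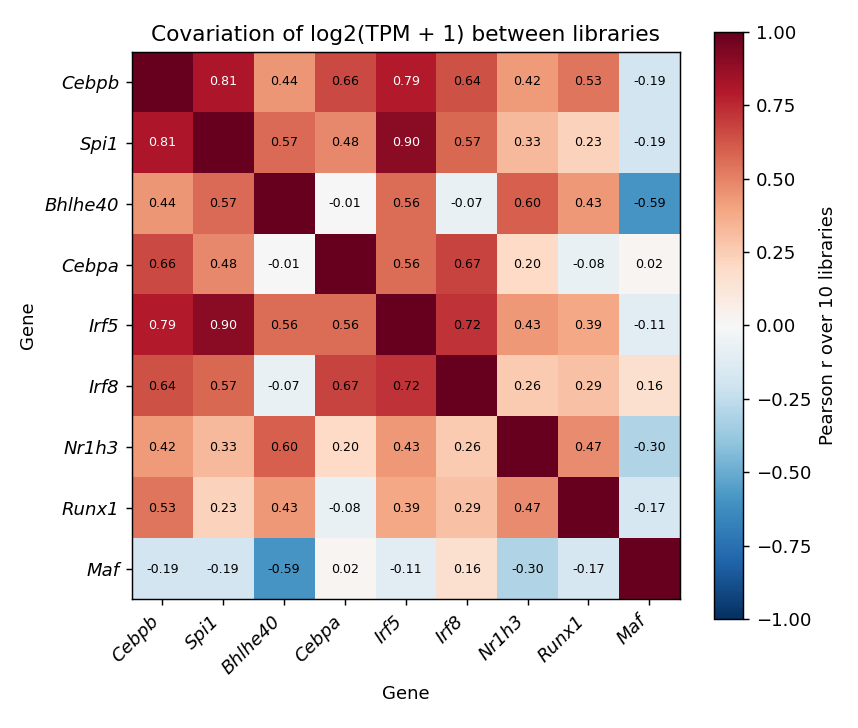
Pearson r of log2(TPM + 1) over the 10 libraries for each pair of the 9 genes, red above 0 and blue below. The strongest cell is Spi1 with Irf5, at 0.90, and Maf is at or below 0.16 with every other gene.

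The genes whose profile over the 10 libraries was most like each factor, among tested genes averaging at least 10 TPM, were Efhd2 for Spi1 (r = 0.966), Rhov for Cebpb (0.965), Eif3a for Bhlhe40 (0.970), Ctsh for Cebpa (0.943), Pik3ap1 for Irf5 (0.948), Bcl2l1 for Irf8 (0.927), Ankrd66 for Nr1h3 (0.947), Med12 for Runx1 (0.948) and Rps23 for Maf (0.950). They were picked as the highest of all such genes, so these values carry no test. The next most alike were Fam76a and Nfkbid for Spi1, Ccnl1 and Stap1 for Cebpb, Malt1 and Cd24a for Bhlhe40, Btg2 for Cebpa, Rassf2 for Irf5, Prr14 and Anp32a for Irf8, Il27 and Igf2bp2 for Nr1h3, Gabpb1 and Gpank1 for Runx1, and Ifrd2 and Tnfaip8l2 for Maf.

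Of relations between a factor and cell content, 0 passed the adjusted threshold, over 36 relations with macrophage, T cell, fibroblast and type 1 dendritic cell marker means (smallest permutation adjusted p = 0.345, 5 relations at an unadjusted p under 0.05). The strongest was Cebpb with the fibroblast markers at r = -0.756 (permutation p = 0.0115, adjusted p = 0.345, rho -0.576 with permutation p = 0.0878), which was -0.384 without S452A 3 and WT 3. Spi1 with the fibroblast markers was at r = -0.659 (permutation p = 0.0298, adjusted p = 0.345, rho -0.442 with permutation p = 0.204), and at -0.101 without the same libraries. Irf5 with them was at r = -0.604 (permutation p = 0.0614, adjusted p = 0.346, rho -0.309 with permutation p = 0.387), and at -0.054 without the same libraries. Spi1 with the macrophage markers was at r = 0.595 (permutation p = 0.0673, adjusted p = 0.346, rho 0.200 with permutation p = 0.582), and at -0.629 without S452A 2 and WT 3. Runx1 with the T cell markers was at r = 0.656 (permutation p = 0.037, adjusted p = 0.345). Its rho was 0.552 (permutation p = 0.106), and r was 0.629 without S452A 1 and WT 2. Nr1h3 with the type 1 dendritic cell markers was at r = 0.645 (permutation p = 0.0479, adjusted p = 0.345). Its rho was 0.539 (permutation p = 0.115), and r was 0.484 without WT 1 and WT 2.

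The mean level of 10 PU.1 target genes, some of them also macrophage markers, was correlated with that of Spi1. The mean log2(TPM + 1) of 10 textbook targets, among them Csf1r, Cd68, Itgam and Cybb, was 6.70, 6.5, 6.96, 6.78 and 6.82 in S452A libraries 1 to 5, and 6.598, 6.83, 6.63, 6.72 and 6.69 in WT libraries 1 to 5. Across the 10 libraries it had r = 0.833 with Spi1 (permutation p = 0.00222, adjusted p = 0.0178 over 8 relations) and rho 0.903 (permutation p = 0.00084, adjusted p = 0.00672). All 10 targets had r above 0, from 0.229 for Csf3r to 0.680 for Cd68, with a median of 0.493. Of genes averaging at least 10 TPM, 18.1% had an r to Spi1 of at least 0.484. The targets Csf1r, Cd68, Itgam, Fcgr1 and Msr1 were also in the macrophage marker list. Whether the relation is specific to PU.1 targets, apart from macrophage content, was not tested. Centred within genotype, r was 0.831 and no longer passed (exact permutation p = 0.00674, adjusted p = 0.0539), and without S452A 2 and S452A 3 it was 0.649. Leaving out S452A 2 alone gave r of 0.754 (permutation adjusted p = 0.145) and S452A 3 alone 0.778 (permutation adjusted p = 0.119). S452A 2 was lowest and S452A 3 highest in both Spi1 and the target mean.

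**Figure D4:**
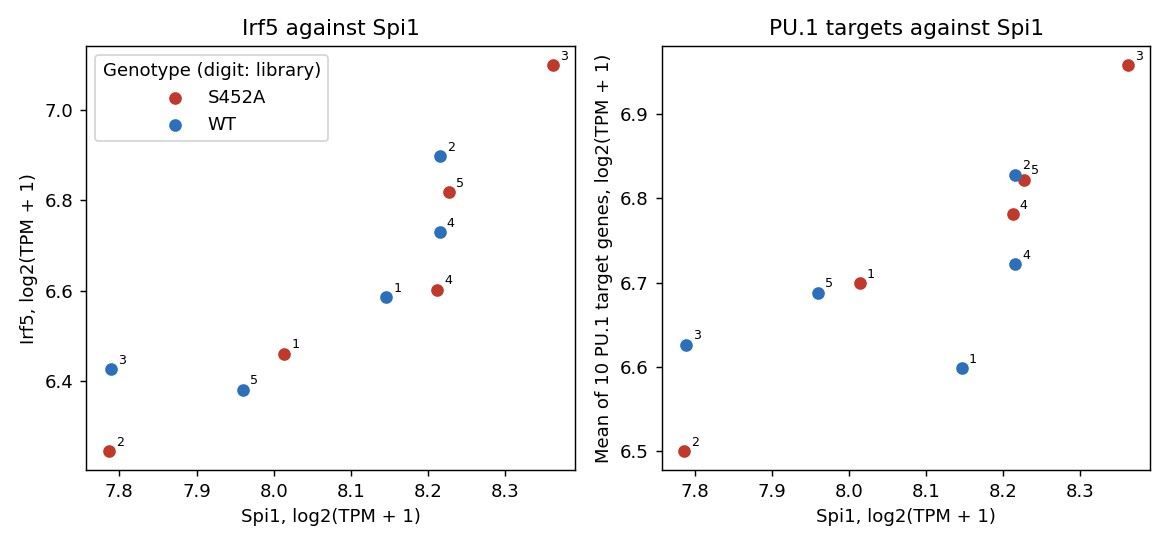
Irf5 (left) and the mean of 10 PU.1 target genes (right) against Spi1, all as log2(TPM + 1), one point per library, S452A red and WT blue, with the library number. S452A 2 and S452A 3 lie at the low and the high end in both panels.

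The other 7 relations between a factor and its targets did not pass. Nr1h3 with 16 LXR targets, among them the cholesterol exporters Abca1 and Abcg1, was at r = -0.406 (permutation p = 0.244, adjusted p = 0.806, rho -0.600 with permutation p = 0.074), -0.808 without S452A 1 and S452A 4, and 5 of the 16 had r above 0. Cebpa and Cebpb with 10 C/EBP targets were at -0.309 and 0.237, Irf8 with 7 targets at 0.299, Irf5 with 5 at -0.095, Maf with 4 at -0.091 and Runx1 with 2 at -0.070, with permutation adjusted p of at least 0.806 for each.

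Levels of factors were also compared as log2 ratios of TPM + 1 within each library. Of 8 ratios of partners and paralogs, 0 passed the exact permutation test between genotypes after adjustment, and 1 had an unadjusted p under 0.05. Cebpa was below Cebpb in 10 of 10 libraries, at a mean log2 ratio of -2.69 in S452A libraries and -2.58 in WT libraries. Irf8 was above Irf4, its close relative, in 10 of 10 (4.51 in S452A, 5.04 in WT). The difference of this ratio, S452A minus WT, was -0.53, and -0.65 with a pseudocount of 0.1 and -0.36 with one of 5. Nr1h3 was below its paralog Nr1h2 in 10 of 10 libraries. The ratio of Irf5 to Irf8 was 0.24 ± 0.22 in S452A libraries and -0.04 ± 0.09 in WT libraries (SD, n = 5 each), higher in S452A by 0.27 (exact permutation p = 0.0317, adjusted p = 0.254 over 8), and it was above 0 in 6 of 10 libraries.

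**Figure D5:**
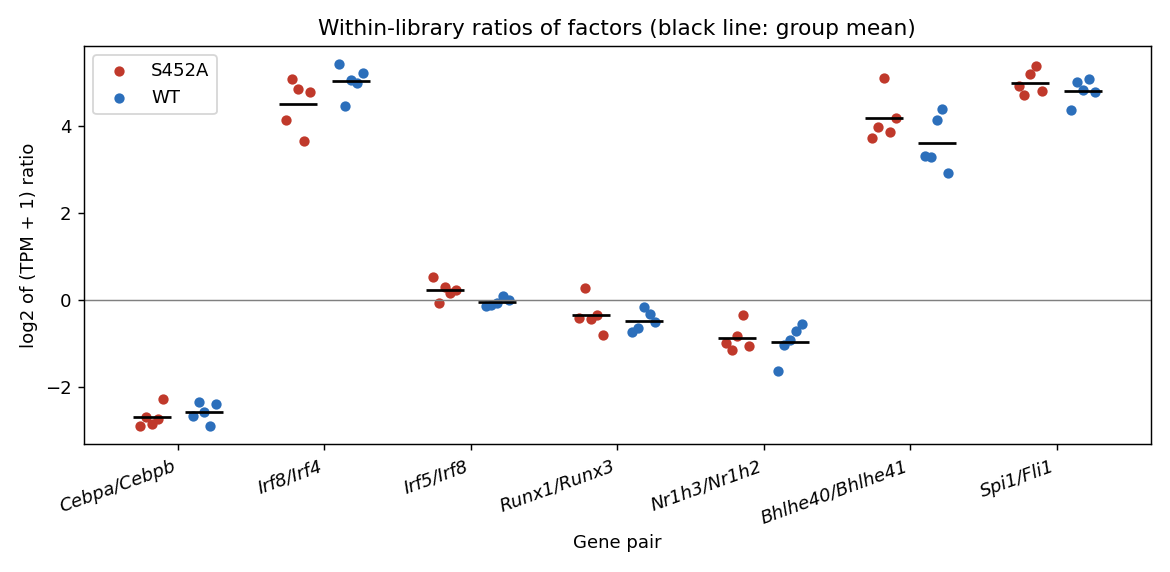
Log2 ratio of TPM + 1 within each library for 7 pairs of genes, S452A red and WT blue, with the group mean as a black line and a grey line at equal levels. Cebpa/Cebpb is below 0, and Irf8/Irf4, Bhlhe40/Bhlhe41 and Spi1/Fli1 above 0, in each of the 10 libraries.

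The families of these factors had 0 genes called, where 1 of the 13930 tested genes (0.00718%) was called. In the C/EBP family 6 genes were tested, 5 of them with a difference above 0, beside 46.6% of all tested genes. Cebpg, a short C/EBP protein that pairs with the others, averaged 71.6 ± 4.32 TPM in S452A libraries and 60.6 ± 1.76 TPM in WT libraries (SD, n = 5 each), a difference of 0.24 (SE 0.09, limma unadjusted p = 0.01631, adjusted p = 0.9523), and Ddit3 averaged 187 TPM in S452A and 165 TPM in WT. These Ddit3 values are of its tested row. A second row of that symbol, below the filter, averaged 0 TPM in S452A and 25.7 TPM in WT libraries, from WT 1 alone. The Ddit3 difference over both rows was not tested. Cebpd and Cebpe stood at 2.53 to 12.6 TPM on average in either group. Of 8 IRF genes tested, 4 were above 0 and 4 below, and Irf7, the interferon-response member, was the highest at 596 ± 142 TPM in S452A and 614 ± 58.9 TPM in WT libraries. Irf1 averaged 155 TPM in S452A and 152 TPM in WT, and Irf2 24.1 TPM in S452A and 24.5 TPM in WT. Irf9 averaged 77.7 TPM in S452A and 66.2 TPM in WT, and Irf3 47.8 TPM in S452A and 56.6 TPM in WT. Irf4 was low, at 2.97 TPM in S452A and 2.24 TPM in WT. The small MAF genes Maff, Mafg and Mafk, which lack an activation domain, had differences of 0.13, 0.19 and 0.20. Runx3 averaged 43.6 TPM in S452A and 42.9 TPM in WT, and Cbfb, the partner of RUNX proteins, 52.7 TPM in S452A and 52.3 TPM in WT. Runx2 averaged 8.36 TPM in S452A and 7.35 TPM in WT. Spic and Spib, the PU.1 relatives of red pulp macrophages and B cells, averaged 7.78 and 3.37 TPM in S452A libraries and 10.3 and 4.35 TPM in WT libraries. Bhlhe41 averaged 9.95 TPM in S452A and 11.8 TPM in WT, and Nr1h2 (LXRβ) 66.2 TPM in S452A and 62.8 TPM in WT. Of the RXR partners of LXR, Rxrb averaged 32.8 TPM in S452A and 33.8 TPM in WT, and Rxra 3.72 TPM in S452A and 4.04 TPM in WT.

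Other factors and partners of macrophages likewise had 0 genes called, where 0.00718% of all tested genes were. Of 35 other myeloid transcription factors, 26 had a difference above 0, with a median of 0.11. Over all tested genes 46.6% were above 0, and the median was -0.02. The smallest unadjusted p belonged to Klf4, a factor of monocytes, with 45.5 ± 12.4 TPM in S452A and 31.9 ± 4.52 TPM in WT (difference 0.46, limma adjusted p = 0.9523), followed by Zeb2 at 176 ± 51.1 TPM in S452A and 136 ± 31.9 TPM in WT (SD, n = 5 each). Of 17 cofactors and regulators 10 were above 0, with a median of 0.01, and Irak4, a kinase of Toll-like receptor signalling, averaged 8.11 TPM in S452A and 10.5 TPM in WT. Ncoa5 averaged 27.6 TPM in S452A and 23.1 TPM in WT. Among the target lists, with 0 called in each, C/EBP targets had 8 of 10 above 0 (median 0.28), IRF8 targets 6 of 7 (0.27), LXR targets 10 of 16 (0.07) and PU.1 targets 6 of 10 (0.05). Il1b and Cd14, C/EBP targets, averaged 3983 and 2304 TPM in S452A libraries and 3134 and 1854 TPM in WT libraries, and Il6 and Tnf, IRF5 targets, 49.9 and 1576 TPM in S452A and 36.7 and 1163 TPM in WT. Of the other targets with the smallest unadjusted p, Cybb and Msr1 (PU.1) had differences of 0.31 and 0.23, Il18 (IRF8) 0.37, C1qa and C1qb (MAF) -0.21 each, and Abca1 and Abcg1 (LXR) 0.30 and -0.21. Csf3r, Cybb, Csf1r, Il6 and Il12b each sat in more than 1 target list, Klf4 was also in the IRF8 list, and the 2 RUNX1 targets used were Csf1r and Spi1, itself 1 of the 9 factors.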

How the data were processed

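Bulk RNA of 10 libraries was measured. Per the labels' protocols, a directional kit was used. STAR 2.7.9a, RSEM 1.3.0 and GRCm38.p6 are named in the submitters' processing notes. No source used here gives the annotation release or use of strand. TPM values were deposited by the authors and sum to the same total per library, so depth is not kept. The table's columns were matched to samples by their sample descriptions.

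Values were analysed as log2(TPM + 1), with genes at 1 TPM or more in 5 or more libraries, with limma 3.58.1 under R 4.3.3 (eBayes with a trend after lmFit, genotype as the only term, 2-sided, Benjamini-Hochberg adjusted p under 0.05). Differences are S452A minus WT, and this scale understates the change of low genes. Correlations across libraries used permutation of pairings with 100000 resamples, and single measures exact permutation tests, whose smallest p with 5 against 5 is 0.00794. Other steps ran in Python 3.11.15 with scipy 1.17.1, pandas 2.3.3, numpy 2.4.6 and, for figures, matplotlib 3.10.9. The labels number separate mice, so p-values measure the spread between mice.

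The 9 factors and all gene lists were chosen with earlier results of these data known. The text names the factors, their tested family members, the 2 genes of smallest unadjusted p in other lists, and the 3 genes most alike to each factor, leaving out predicted genes. A few results that these rules cover, 1 of the 8 ratios among them, are not reported here. Of 55487 IDs, 55094 matched GENCODE M21 (GRCm38), and near-identical copies were searched with blastn 2.17.0. Alternatives were pseudocounts of 0.1 and 5, other filters, other scalings, omission of each library, a block for the mouse number, a T cell marker covariate and an exact test per gene.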

Additional observations from a re-analysis of the deposited data

Results flagged for a closer look

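Maf in S452A library 5 was at 27.14 TPM, apart from the other 4 S452A libraries, which lay between 20.96 and 22.31 TPM. It was picked out because its gap to the nearest library, divided by the range of its group, exceeded Dixon's critical value. It was the 1 such value in 34 groups of 5 libraries checked (9 factors and 8 ratios in each genotype), and chance picks out about 1 in 20 groups.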

How the results depend on the processing

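No setting called any of the 9 factors between genotypes, and over all genes the count was 1 in the other settings run but 0 with a filter at 5 TPM and 0 with an exact test per gene (621 genes at an unadjusted p under 0.05, smallest adjusted exact p 0.962). An exact p cannot be smaller than 0.00794 here, so after adjustment over 13930 genes that test had little power to call any gene. Pairs of factors that passed numbered 2 centred within genotype and 3 after rescaling by the median log ratio, against 1, and 0 to 2 without 1 library. Targets that passed numbered 0 centred within genotype, against 1, and 0 to 1 without 1 library. The Cebpa difference turned to -0.006 with quantile normalization and -0.0035 without mitochondrially encoded genes. Without 1 library, differences ran from -0.0139 to 0.14 for Spi1, -0.12 to 0.16 for Cebpa, -0.072 to 0.14 for Irf5 and -0.0716 to 0.33 for Nr1h3, and the ratios from -0.0218 to 0.25 for Runx1/Runx3 and -0.0691 to 0.20 for Nr1h3/Nr1h2. The cause was not tested. Bhlhe40 stayed between 0.28 and 0.46 and Maf between -0.31 and -0.20. With the mouse number as a replicate block, 1 gene, 0 of the factors and 0 ratios were called. Same-numbered libraries had correlations of deviations from -0.15 to 0.07 and 0 of 5 S452A libraries correlated best with their own number. A weak pairing could be missed with 5 numbers, so whether the numbers pair the samples is not settled. Unknown depth limits what can be said of low genes.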

Other observations

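A second row with the symbol Ddit3 (ENSMUSG00000116429.1), below the filter, was listed at 0 in all S452A libraries and in 4 of 5 WT libraries, and at 128.7 TPM in WT library 1.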
